A study of Homo sapiens with 14 samples.

Results

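Aminoacyl-tRNA synthetases are the enzymes that join each amino acid to the tRNA that reads its codons, and a cell needs a separate set for protein synthesis in the cytosol and in the mitochondria. The 35 genes described here were chosen by their GENCODE symbols, 19 for enzymes of the cytosol and 16 for enzymes of the mitochondria, out of 60683 gene rows of which 60370 had a symbol. GARS1 and KARS1 each encode a cytosolic and a mitochondrial form of their enzyme and were placed with the cytosolic genes. FARSA and FARSB encode the subunits of a single phenylalanine enzyme, and EPRS1 encodes a fused enzyme for glutamate and proline. Enzymes for aspartate were not analysed here. All 35 genes had a row in every library. The filter on low counts kept 34 of them among the A549 libraries, where VARS2 did not pass, and 35 of them in the SUM159 libraries and in the model of both lines.

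RNA was sequenced from A549, a lung cancer line, and SUM159, a breast cancer line, in 14 libraries that formed 7 groups of 2. A549 cells were left untreated, or received 2 µM palbociclib, an inhibitor of the cell cycle kinases CDK4 and CDK6, or 0.5 µM indisulam, a sulfonamide that leads to degradation of the splicing factor RBM39, or both drugs, each for 10 days. A549 and SUM159 cells also received 0.5 µM PF-06873600, which inhibits CDK2 as well as CDK4 and CDK6, for 7 days, and SUM159 cells were left untreated as their control. The labels give no collection day for untreated cells. A549 was grown in RPMI and SUM159 in DMEM/F12 with insulin and hydrocortisone, so line and medium cannot be told apart. The series describes its duplicates as technical, so that the p-values below measure only the spread between these libraries.

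In the cytosol, 7 of the enzymes (EPRS1, IARS1, LARS1, MARS1, QARS1, RARS1 and KARS1) are held in the multisynthetase complex by the scaffold proteins AIMP1, AIMP2 and EEF1E1. The mitochondrial enzymes are encoded in the nucleus, made in the cytosol and imported. Many cytosolic synthetase genes are known targets of ATF4, a transcription factor that accumulates when amino acids are scarce or proteins misfold, and that binds DNA as a dimer with C/EBP proteins at elements with the core TGATGNAA.

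These letters were searched on both strands of the RefSeq promoter windows (GRCh38.p14, 250 bases before to 50 bases after the start), which 30 of the 35 genes had. YARS1, LARS1, VARS1, AARS2 and VARS2 had no entry. TGATGNAA was present in 7 of 16 cytosolic genes (43.8%) and in 1 of 14 mitochondrial genes (7.14%), against 3.62% of all 35116 windows. A gene was counted where any of its windows matched, so the gene and window shares differ in unit. The narrower TGATGCAA, a subset of the same matches, was present in 6 of 16 cytosolic genes, in 0 of 14 mitochondrial genes and in 0.866% of all windows. Of the 7 cytosolic matches, 3 (AARS1, GARS1 and IARS1) lay wholly before the RefSeq start. All 3 lie inside the GENCODE spans of their genes, which begin further upstream. A match is a description of the letters and not a binding site. The windows with a match are shown because these letters are the core known for ATF4 and were found mostly in cytosolic genes. Each is a run of 30 bases read in the direction of the gene, with the match in capitals.
AARS1 (chr16:70289675-70289704, minus strand): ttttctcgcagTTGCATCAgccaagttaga
CARS1 (chr11:3057407-3057436, minus strand): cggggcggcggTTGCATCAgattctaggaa
IARS1 (chr9:92293692-92293721, minus strand): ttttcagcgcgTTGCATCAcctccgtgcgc
MARS1 (chr12:57488053-57488082, plus strand): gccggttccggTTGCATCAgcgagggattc
NARS1 (chr18:57621804-57621833, minus strand): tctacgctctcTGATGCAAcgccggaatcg
TARS1 (chr5:33440956-33440985, plus strand): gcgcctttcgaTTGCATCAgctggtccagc
GARS1 (chr7:30594834-30594863, plus strand): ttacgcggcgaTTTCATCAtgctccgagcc
YARS2 (chr12:32756076-32756105, minus strand): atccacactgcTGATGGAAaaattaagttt
The match read as TTGCATCA, the reverse strand of TGATGCAA, in AARS1, CARS1, IARS1, MARS1 and TARS1, and as TGATGCAA in NARS1.

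The libraries held between 13060374 and 21149256 counts on genes, and the 2 libraries of every group differed by more than counting noise, where the chi-square divided by its degrees of freedom was between 1.61 and 9.57. The epithelial cadherin CDH1 was at 93.1 to 172 CPM, the counts of a gene scaled to a fixed library total, in A549 and at most at 0.818 CPM in SUM159, and the mesenchymal filament VIM was at 628 to 1792 CPM in A549 and at 3609 to 4318 CPM in SUM159. Of 4 marker genes of leukocytes and endothelium, PTPRC (9.35 to 20.3 CPM) and PECAM1 (10.9 to 27.6 CPM) were detected in SUM159 and stayed at 0.556 and 1.6 CPM or less in A549, while CD3E was at 0 in both lines and VWF at 1.06 CPM or less. The part of these markers in the results was not tested.

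Cytosolic synthetase transcripts were far more abundant than mitochondrial ones. On a scale that divides by transcript length (TPM), the median of the cytosolic genes in untreated A549 was 207 TPM and that of the mitochondrial genes 18.6 TPM, a ratio of 11.1. The most abundant in untreated A549 was GARS1 at 454 TPM, for the glycine enzyme, and the least abundant cytosolic gene was FARSB at 16.5 TPM. The transcript length used was 6761 bases for FARSB and 1811 bases for FARSA. Before division by length FARSB was also the lowest, at a mean of 53.1 CPM, but close to FARSA at 61.25 CPM. Among the mitochondrial genes the order ran from IARS2, for isoleucine, at 98.9 TPM to VARS2, for valine, at 0.178 TPM. The classes therefore overlapped, and IARS2 and CARS2 (42.8 TPM) stood above the cytosolic VARS1 (38.6 TPM). VARS2 shares exon bases with another gene on its strand, and whether this lowers its count was not tested. In untreated SUM159 the median was 179 TPM for cytosolic and 27.8 TPM for mitochondrial genes, a ratio of 6.42, with TARS1 highest at 426 TPM.

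The summed level of the 19 cytosolic genes was lower in every drug-treated group than in untreated cells of its line, and the sum of the 16 mitochondrial genes moved much less in A549. The cytosolic sum was 4777 and 4767 CPM in the untreated A549 libraries, 4097 and 4052 CPM with palbociclib, 3910 and 3948 CPM with indisulam, 2822 and 2816 CPM with both drugs and 3281 and 3269 CPM with PF-06873600. No treated A549 library overlapped the untreated ones, and the combination was the lowest group. The mitochondrial sum was 499.3 and 526 CPM in untreated A549, 561 and 551 CPM with palbociclib, 552.5 and 529.8 CPM with indisulam, 471 and 456 CPM with both drugs and 536 and 533.5 CPM with PF-06873600. The mitochondrial sum was thus below both untreated libraries only with the combination. In SUM159 both sums were lower with PF-06873600, the cytosolic one at 4569 and 4400 CPM in untreated and 3411 and 3336 CPM in treated libraries, and the mitochondrial one at 715 and 701 CPM in untreated and 511 and 503 CPM in treated libraries. The ratio of the sums was 9.57 and 9.06 in untreated A549 and between 5.99 and 7.45 in the 8 treated A549 libraries. In SUM159 it was 6.39 and 6.28 in untreated and 6.68 and 6.64 in treated libraries. In bulk RNA a CPM is a share of all counts, and fewer cells of a type and less RNA per cell cannot be told apart.

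**Figure D1:**
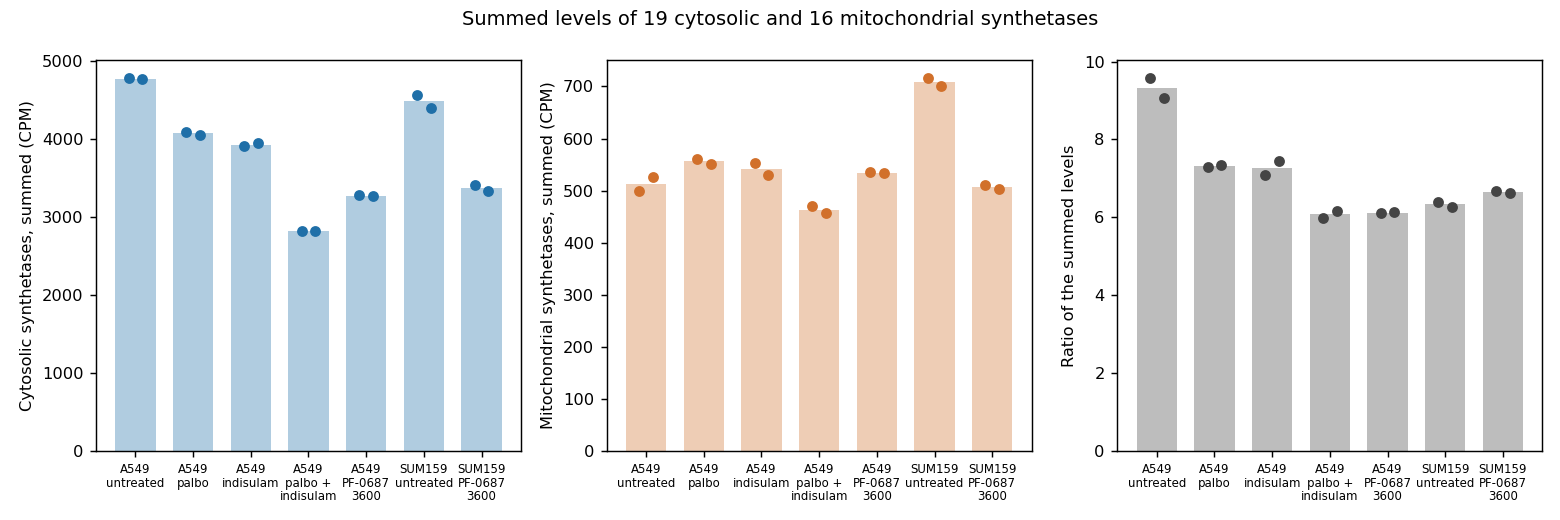
Summed level in CPM of the 19 cytosolic genes (left, blue) and the 16 mitochondrial genes (middle, orange) and the ratio of these sums (right, grey), with a point for each of the 14 libraries and a bar for the mean of the 2 libraries of a group. The cytosolic sum falls from 4777 and 4767 CPM in untreated A549 to 2822 and 2816 CPM with both drugs, and the ratio falls in all 4 treated A549 groups but not in SUM159.

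Because abundant genes dominate a sum, the difference between the classes was also taken as the mean log2(CPM + 1) over cytosolic genes minus that over mitochondrial genes. It was 3.30 ± 0.02 (SD, n = 2) in untreated A549, 3.06 ± 0.02 with palbociclib, 3.09 ± 0.08 with indisulam, 2.86 ± 0.02 with both drugs and 2.94 ± 0.02 with PF-06873600. It was 2.98 ± 0.06 in untreated SUM159 and 3.05 ± 0.02 with PF-06873600. Relative to untreated cells it changed by -0.23 with palbociclib, -0.21 with indisulam, -0.44 with both drugs and -0.35 with PF-06873600 in A549, and by 0.08 with PF-06873600 in SUM159, where the SD of the difference was 0.06. This measure was computed over chosen genes and carries no test. With the median over genes in place of the mean, the same changes were -0.50, -0.55, -0.53 and -0.81 in A549 and 0.31 in SUM159.

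Single genes were tested with edgeR's quasi-likelihood test on the counts, and a gene is called higher or lower below when its Benjamini-Hochberg adjusted p over all genes tested was under 0.05. Fold changes are given as log2 values with their standard error (SE).

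Palbociclib alone lowered the transcripts of part of the cytosolic set. Of the 19 cytosolic genes 10 were lower and 1 was higher, and of the 15 mitochondrial genes tested 0 were lower and 2 were higher, where over all 15780 genes tested 7.4% were lower and 8.3% higher. At an unadjusted p under 0.05 edgeR also had 0 mitochondrial genes lower, as did DESeq2 at its adjusted threshold. The median log2 fold change was -0.17 over the cytosolic genes, 0.14 over the mitochondrial genes and -0.01 over all genes tested. SARS1 (ENSG00000031698, chr1:109213918-109238182, plus strand), which charges the serine tRNAs, had the largest change, from 267.6 and 277.5 CPM in untreated cells to 175 and 174 CPM. Both treated libraries lay below both untreated ones, which the rule for naming genes required. The level was 0.64 of the untreated one (log2 -0.64, SE 0.06, adjusted p = 3.85e-06). AARS1 (ENSG00000090861, chr16:70251983-70289707, minus strand), the alanine enzyme, was at 580.5 and 553 CPM in untreated and 411 and 408.5 CPM in treated libraries (log2 -0.47, SE 0.05, adjusted p = 2.65e-05). CARS1, the cysteine enzyme, followed at log2 -0.32 (adjusted p = 0.00212). RARS1, the arginine enzyme, was the cytosolic gene that rose, by log2 0.21 (adjusted p = 0.0175). The mitochondrial genes that rose were MARS2, from 8.84 and 8.67 to 11.35 and 12.4 CPM (log2 0.44, SE 0.12, adjusted p = 0.0206), and AARS2, from 15.09 and 15.2 to 20.6 and 19.9 CPM (log2 0.42, SE 0.09, adjusted p = 0.0072). GARS1 fell (log2 -0.32, adjusted p = 0.000748), while KARS1 (log2 -0.15), WARS1 (log2 -0.10), WARS2 (log2 -0.17) and HARS2 (log2 -0.04) were not called. These changes depended on single libraries: the number of genes lower was 5 without palbociclib replicate 1, 6 without palbociclib replicate 2 and 6 without untreated replicate 2, and the number higher was 1 when either palbociclib replicate was left out and 5 when either untreated replicate was. In a model of only the groups compared 3 genes were lower, 0 were higher, and the calls of CARS1, MARS2 and AARS2 were lost.

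With indisulam alone the cytosolic genes again fell more often than they rose, but some rose. Of the 19 cytosolic genes 10 were lower and 3 higher, and of the 15 mitochondrial genes 3 were lower and 2 higher, against 17.5% lower and 28.0% higher over all genes tested. The share of higher among all calls was 61.6% here and 50.4% with TMM factors. The median log2 fold change was -0.16 over the cytosolic genes, 0.13 over the mitochondrial genes and 0.08 over all genes tested. SARS1 was again the lowest, at 152.5 and 160.8 CPM (log2 -0.80, SE 0.06, adjusted p = 5.69e-08). QARS1 (ENSG00000172053, chr3:49095932-49105130, minus strand), the glutamine enzyme of the complex, was at 236 and 246 CPM in untreated and 149.6 and 154 CPM in treated libraries (log2 -0.67, SE 0.05, adjusted p = 2e-07). GARS1 (ENSG00000106105, chr7:30580533-30634033, plus strand) fell from 529.7 and 525 CPM to 341 and 356 CPM (log2 -0.60, SE 0.05, adjusted p = 4.22e-07). The higher cytosolic genes were FARSB (log2 0.43), RARS1 (log2 0.38) and VARS1 (log2 0.35), with adjusted p of 0.000146, 7.04e-05 and 0.00724. WARS1, the tryptophan enzyme and a known interferon target, was at 289 and 287 CPM in untreated and 210.2 and 214 CPM in treated libraries (log2 -0.44, SE 0.05). Of the mitochondrial genes FARS2 (log2 -0.57), AARS2 (log2 -0.38) and TARS2 (log2 -0.35) were lower and EARS2 (log2 0.29) and HARS2 (log2 0.23) higher. KARS1 (log2 -0.10), HARS1 (log2 -0.04) and WARS2 (log2 -0.24) were not called. The HARS2 call was lost with TMM factors and with DESeq2, and without indisulam replicate 2 only 1 mitochondrial gene was lower. Without indisulam replicate 1 the genes called higher were 3 in place of 5, of which 1 was mitochondrial.

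Both drugs together gave the broadest fall of the cytosolic set in A549. Of the 19 cytosolic genes 14 were lower and 2 higher, and of the 15 mitochondrial genes 6 were lower and 2 higher, where 30.0% of all genes tested were lower and 35.1% higher. The median log2 fold change was -0.55 over the cytosolic genes, -0.07 over the mitochondrial genes and 0.05 over all genes tested. AARS1 was at 237 and 234 CPM, 0.416 of the untreated level (log2 -1.27, SE 0.05, adjusted p = 3.65e-11). SARS1 was at 123 and 116 CPM, 0.438 of the untreated level (log2 -1.19, SE 0.06, adjusted p = 2.2e-10). QARS1 was at 118 and 114 CPM, 0.481 of the untreated level (log2 -1.05, SE 0.05, adjusted p = 4.43e-10). In each of these genes the libraries treated with both drugs lay below every library treated with palbociclib or indisulam alone. GARS1 was at 249.8 and 258 CPM (log2 -1.05, SE 0.05), and IARS1, the isoleucine enzyme, went from 364 and 381 CPM to 184 and 181 CPM (log2 -1.03, SE 0.05). YARS1 for tyrosine (log2 -0.97), MARS1 for methionine (log2 -0.92), WARS1 (log2 -0.91) and EPRS1 (log2 -0.81) followed. KARS1, the lysine enzyme whose gene also serves the mitochondria, was at 186 and 207 CPM in untreated and 149 and 150.5 CPM in treated libraries (log2 -0.39, SE 0.06, adjusted p = 5.39e-05).

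The cytosolic genes that did not fall with the combination were RARS1, FARSA, FARSB, HARS1 and VARS1. RARS1 (ENSG00000113643, chr5:168486451-168519301, plus strand) rose from 98.2 and 94.9 CPM to 131 and 128 CPM (log2 0.43, SE 0.05, adjusted p = 8.48e-06). VARS1, the valine enzyme, was at 85.5 and 65.8 CPM in untreated and 90.5 and 86.8 CPM in treated libraries, and its untreated libraries were further apart, relative to their level, than those of any other cytosolic gene (log2 0.23, SE 0.10, adjusted p = 0.047). Leaving out untreated replicate 2 or either combination replicate left 1 cytosolic gene higher in place of 2. FARSA (log2 -0.02), FARSB (log2 0.09) and HARS1 (log2 -0.10), the histidine enzyme, were not called, with adjusted p of 0.842, 0.255 and 0.262. With TMM factors HARS1 passed the threshold as lower, and 2 genes in place of 4 were higher in the whole set of 35. DESeq2 also called 2 higher.

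Among the mitochondrial genes the combination lowered TARS2, for threonine, from 27.7 and 26.6 CPM to 15.7 and 15 CPM (log2 -0.82, SE 0.09, adjusted p = 1.82e-06). FARS2, for phenylalanine, went from 12.8 and 13.5 CPM to 7.73 and 7.4 CPM (log2 -0.80, SE 0.14, adjusted p = 0.0002), and NARS2, for asparagine, from 29.6 and 28.2 CPM to 19.3 and 21.05 CPM (log2 -0.52, SE 0.09, adjusted p = 0.00014). Their groups did not overlap, which the rule for naming genes required. IARS2 (log2 -0.37), PARS2 (log2 -0.36) and WARS2 (log2 -0.35) were also lower. The WARS2 call was lost with DESeq2 and without untreated replicate 2 or either combination replicate, and DESeq2 called 4 mitochondrial genes lower in place of 6. RARS2 (log2 0.39) and HARS2 (log2 0.25) were higher, and the HARS2 call did not hold with TMM factors or DESeq2. HARS1 and HARS2 lie head to head on opposite strands, their spans share 108 bases, and the strand setting of the counting is not given in the sources used here.

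**Figure D2:**
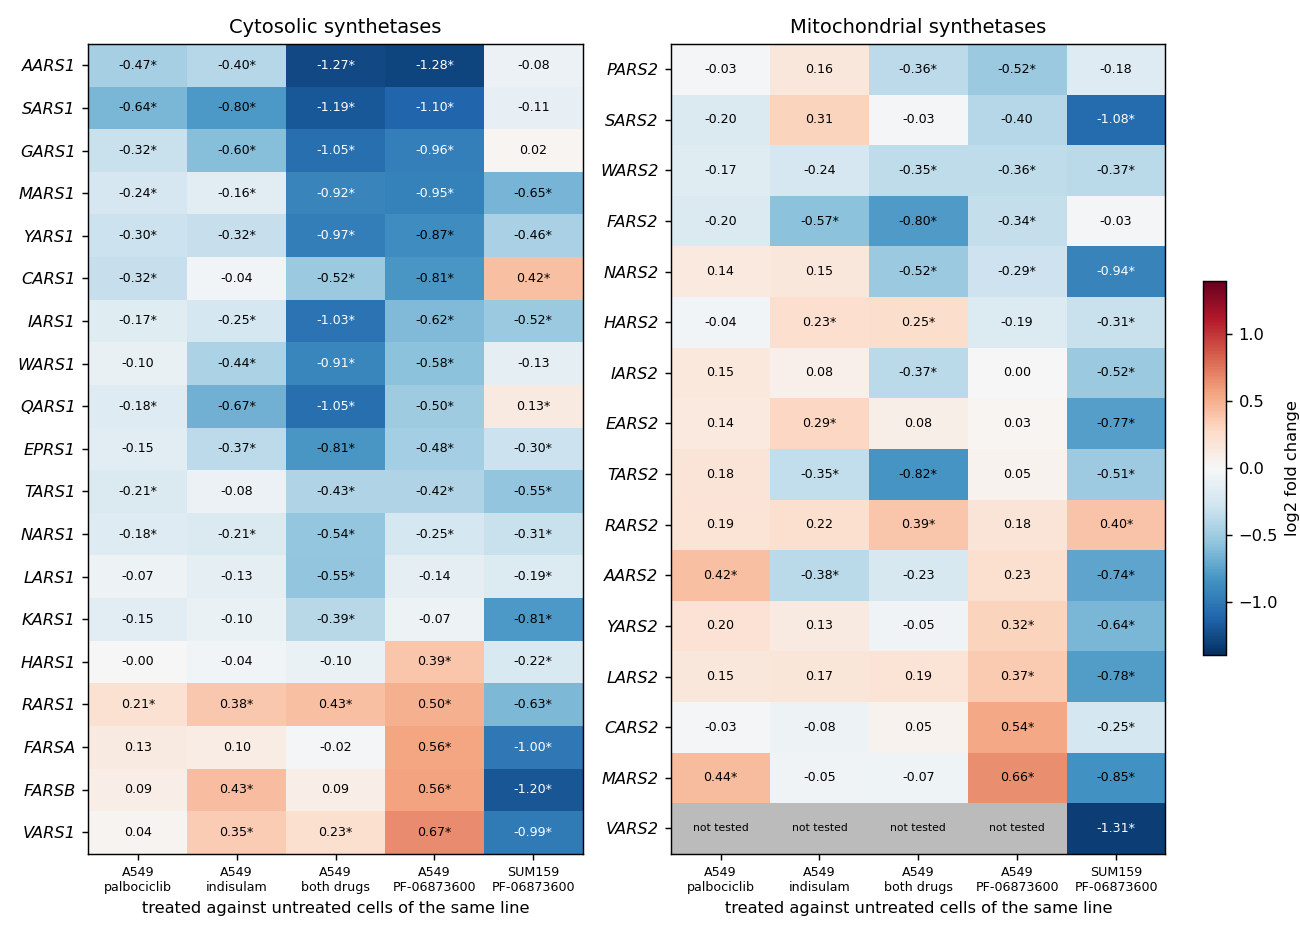
Heat maps of the log2 fold change of each gene (rows) in treated against untreated cells of the same line (columns), cytosolic genes at left and mitochondrial genes at right, with blue for lower, red for higher and an asterisk for an adjusted p under 0.05. The cytosolic panel is mostly blue in the A549 columns and darkest with both drugs, with RARS1, FARSA, FARSB and VARS1 red under PF-06873600 in A549 and blue in SUM159, while 13 mitochondrial genes are called lower in the SUM159 column. VARS2 was not tested in A549.

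Adding indisulam to palbociclib and adding palbociclib to indisulam each lowered further cytosolic genes. Against palbociclib alone 14 cytosolic genes were lower and 1 higher, and 7 of 15 mitochondrial genes were lower and 1 higher, with 26.9% of all genes tested lower and 33.5% higher. QARS1 (log2 -0.87, SE 0.05), IARS1 (log2 -0.86, SE 0.05) and WARS1 (log2 -0.81, SE 0.06) had the largest cytosolic changes, and TARS2 (0.499 of the level with palbociclib alone), NARS2 (log2 -0.66, SE 0.09) and AARS2 (log2 -0.65, SE 0.10) the largest mitochondrial ones. The higher genes were RARS1 (log2 0.21) and HARS2 (log2 0.29), of which TMM factors left 1 and DESeq2 left 0. Without combination replicate 2 only 1 of the 35 genes was higher, and without palbociclib replicate 2 there were 2 mitochondrial genes higher in place of 1. Against indisulam alone 15 cytosolic genes were lower and 0 higher, and 5 of 15 mitochondrial genes were lower and 0 higher, with 23.9% of all genes tested lower and 22.0% higher. DESeq2 also called 0 genes of either class higher, and in edgeR 0 genes with a positive change passed an unadjusted p of 0.05. AARS1 (log2 -0.87, SE 0.05), IARS1 (log2 -0.78, SE 0.05) and MARS1 (log2 -0.76, SE 0.06) fell furthest of the cytosolic genes, and NARS2 (log2 -0.67, SE 0.09), PARS2 (log2 -0.52, SE 0.14) and TARS2 (log2 -0.47, SE 0.09) of the mitochondrial ones. The mitochondrial number was 3 in place of 5 with DESeq2, without indisulam replicate 1 and without combination replicate 2. These comparisons share the combination libraries.

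The interaction term asks whether the effect of both drugs departed from the sum of the single effects on the log2 scale. It was lower than that sum in 8 cytosolic and 4 mitochondrial genes and higher in 1 cytosolic and 0 mitochondrial genes, against 14.5% lower and 10.7% higher over all genes tested. For the mitochondrial genes higher, edgeR at an unadjusted p under 0.05 and DESeq2 also had 0. IARS1 stood 0.61 below the sum (log2 -0.61, SE 0.07, adjusted p = 2.85e-05), with single effects of log2 -0.17 for palbociclib and -0.25 for indisulam beside -1.03 for the combination. MARS1 (log2 -0.52, SE 0.08, adjusted p = 0.000184) and FARSB (log2 -0.43, SE 0.10, adjusted p = 0.00466) followed. FARSB rose by log2 0.43 with indisulam alone and not with the combination. The lower mitochondrial genes were NARS2 (log2 -0.81, SE 0.12), TARS2 (log2 -0.65, SE 0.13), IARS2 (log2 -0.60, SE 0.10) and EARS2 (log2 -0.34, SE 0.10). The departures of NARS2 and TARS2 were the largest of the 34 genes tested together with that of IARS1. SARS1, which fell with each drug alone, was the gene with a departure upward (log2 0.25, SE 0.08, adjusted p = 0.0344), and 0 genes were higher with TMM factors, without a filter on low counts, and without either palbociclib replicate, either combination replicate or indisulam replicate 1.

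PF-06873600 split the cytosolic set of A549 into a larger group that fell and a smaller one that rose. Of the 19 cytosolic genes 12 were lower and 5 higher, and of the 15 mitochondrial genes 4 were lower and 4 higher, where 27.8% of all genes tested were lower and 28.5% higher. The median log2 fold change was -0.48 over the cytosolic genes, 0.03 over the mitochondrial genes and -0.01 over all genes tested. AARS1 was at 235 and 231 CPM, 0.411 of the untreated level (log2 -1.28, SE 0.05, adjusted p = 7.66e-11). SARS1 was at 129.7 and 124 CPM (log2 -1.10, SE 0.06, adjusted p = 9.54e-10), and GARS1 at 271 and 272 CPM (log2 -0.96, SE 0.05, adjusted p = 1.47e-09). MARS1 (log2 -0.95), YARS1 (log2 -0.87) and CARS1 (log2 -0.81) also fell. The 5 genes that rose were VARS1, to 120.1 and 119.8 CPM (log2 0.67, SE 0.09), FARSB, from 55.3 and 50.9 to 75.8 and 81.06 CPM (log2 0.56, SE 0.07), FARSA, from 64.8 and 57.7 to 91.4 and 88.6 CPM (1.47-fold), RARS1, to 136 and 137 CPM (log2 0.50, SE 0.05), and HARS1 (log2 0.39, SE 0.07). In all 5 the treated libraries lay above both untreated ones. KARS1 was not called (log2 -0.07, SE 0.06, adjusted p = 0.348). The mitochondrial genes that rose were MARS2, to 13.1 and 14.4 CPM (log2 0.66, SE 0.12), CARS2, from 40 and 35 to 56.6 and 52.5 CPM (log2 0.54, SE 0.08), LARS2 (log2 0.37) and YARS2 (log2 0.32). PARS2 (log2 -0.52), WARS2 (log2 -0.36), FARS2 (log2 -0.34) and NARS2 (log2 -0.29) were lower in edgeR, but DESeq2 called 0 mitochondrial genes lower, the model of only the groups compared called 2, and without PF-06873600 replicate 1 there was 1.

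**Figure D3:**
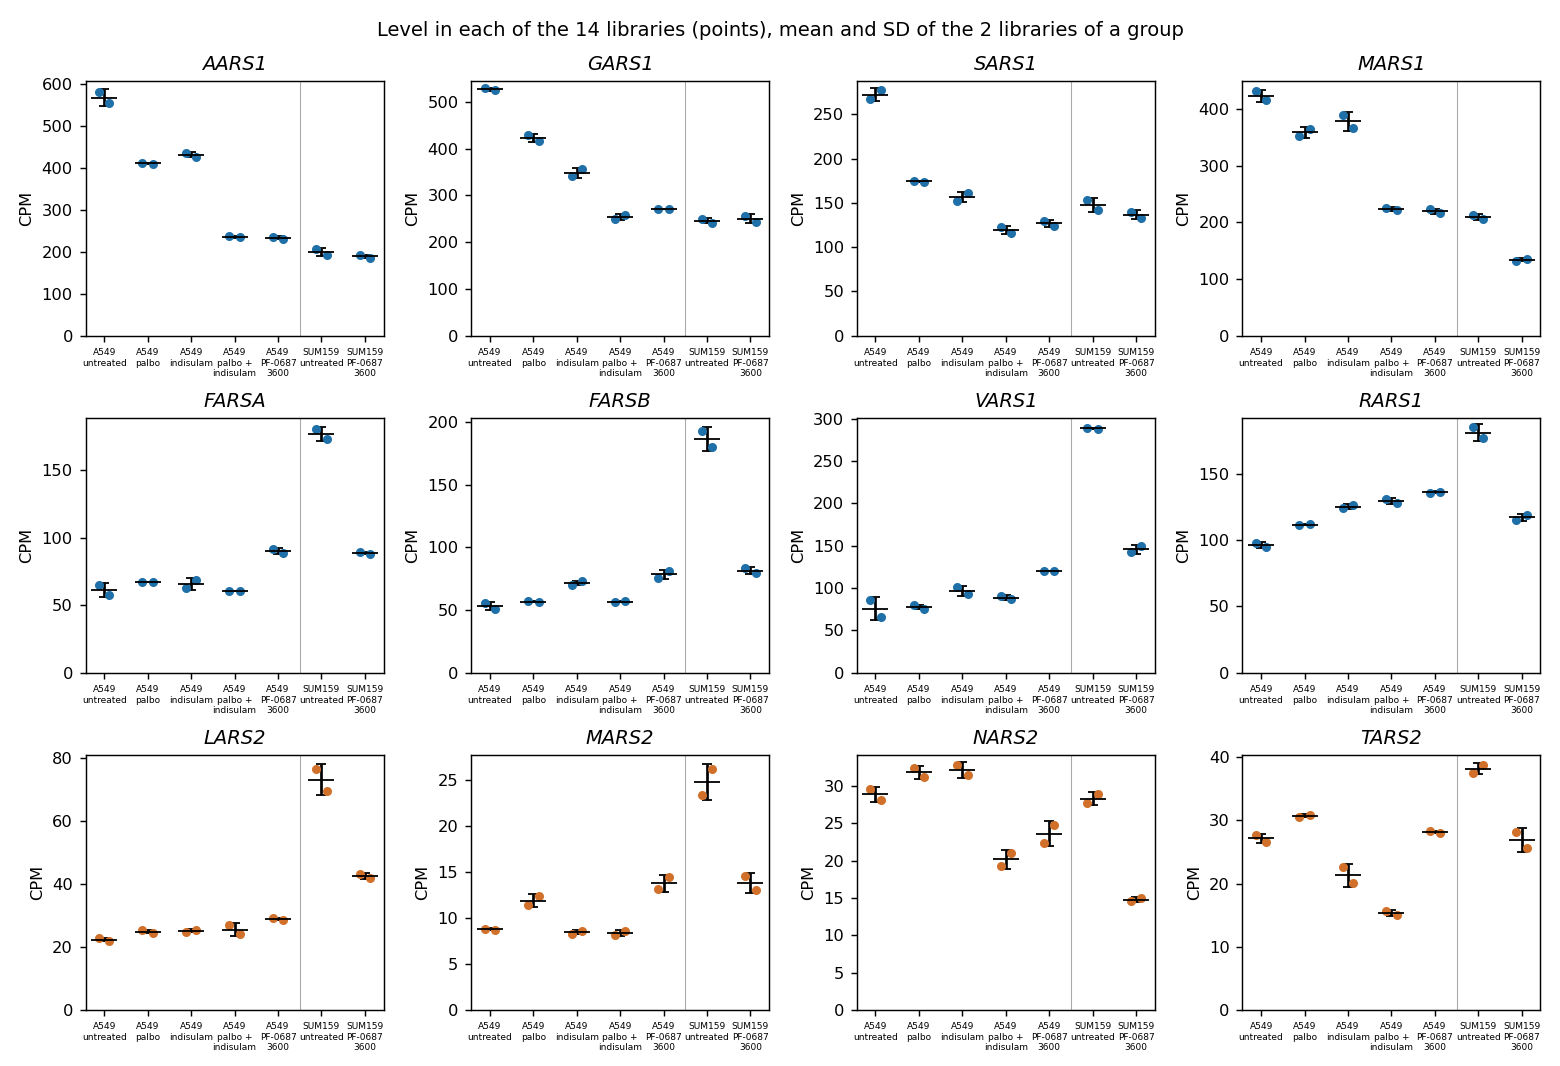
Level in CPM (vertical axis, from 0) of 8 cytosolic genes (blue) and 4 mitochondrial genes (orange) in the 7 groups, with a point for each of the 14 libraries and a bar and whiskers for the mean and SD of the 2 libraries. AARS1, GARS1, SARS1 and MARS1 step down in A549 to about the SUM159 level, while FARSA, FARSB, VARS1, LARS2 and MARS2 are highest in untreated SUM159.

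In SUM159 the same drug lowered most genes of both classes, led by FARSB, FARSA and VARS1 where A549 had been led by AARS1, SARS1 and GARS1. Of the 19 cytosolic genes 13 were lower and 2 higher, and of the 16 mitochondrial genes 13 were lower and 1 higher, against 35.6% lower and 38.1% higher over all 15055 genes tested. The median log2 fold change was -0.31 over the cytosolic genes, -0.58 over the mitochondrial genes and 0.02 over all genes tested. FARSB (ENSG00000116120, chr2:222566899-222656092, minus strand) was at 193 and 179.7 CPM in untreated and 83.1 and 79.6 CPM in treated libraries (log2 -1.20, SE 0.06, adjusted p = 9.98e-11). Its partner FARSA (ENSG00000179115, chr19:12922479-12934037, minus strand) went from 180.6 and 173 CPM to 89.4 and 87.9 CPM, 0.501 of the untreated level (adjusted p = 3.35e-10). VARS1 (ENSG00000204394, chr6:31777518-31795752, minus strand) went from 289 and 288 CPM to 142 and 149 CPM (log2 -0.99, SE 0.05, adjusted p = 4.66e-10). KARS1 (log2 -0.81, SE 0.06) and MARS1 (log2 -0.65, SE 0.05) followed. AARS1 stood at 206 and 192 CPM in untreated and 191 and 185.5 CPM in treated libraries (log2 -0.08, SE 0.06, adjusted p = 0.207), GARS1 at 249.8 and 242 and then 257 and 243 CPM (log2 0.02, SE 0.06, adjusted p = 0.707), and SARS1 had log2 -0.11 (adjusted p = 0.0921). In AARS1 the treated libraries lay below both untreated ones by little, and in GARS1 the groups overlapped. CARS1 rose from 73.4 and 72.15 to 98.8 and 95.9 CPM (log2 0.42, SE 0.06, adjusted p = 6.54e-06), and QARS1 by log2 0.13 (adjusted p = 0.0412), a call that left 1 higher cytosolic gene in place of 2 without untreated replicate 2 or either treated replicate.

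All but 3 of the mitochondrial genes fell with PF-06873600 in SUM159. VARS2 had the largest change (log2 -1.31, SE 0.41, adjusted p = 0.0097), but at 0.905 and 1.06 CPM in untreated and 0.292 and 0.473 CPM in treated libraries it rested on few counts and lost its call with DESeq2, without untreated replicate 2 and without treated replicate 1. SARS2, for serine, was also low, at 3.08 and 3.44 CPM in untreated and 1.17 and 1.84 CPM in treated libraries (log2 -1.08, SE 0.26, adjusted p = 0.00166). NARS2 was at 27.7 and 29 CPM in untreated and 14.6 and 15 CPM in treated libraries (log2 -0.94, SE 0.09, adjusted p = 1.93e-07). MARS2 (log2 -0.85), LARS2 (log2 -0.78), EARS2 (log2 -0.77), AARS2 (log2 -0.74), YARS2 (log2 -0.64), IARS2 (log2 -0.52) and TARS2 (log2 -0.51) fell by amounts between those of MARS2 and TARS2. RARS2, for arginine, rose from 34.6 and 33.8 to 47.5 and 42.7 CPM (log2 0.40, SE 0.07, adjusted p = 0.000208). FARS2 (log2 -0.03) and PARS2 (log2 -0.18) were not called, with adjusted p of 0.834 and 0.242.

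The response to PF-06873600 differed between the lines in 23 of the 35 genes when the difference itself was tested in a model of both lines. The change was higher in SUM159 than in A549 for 8 cytosolic genes and lower for 6, and it was lower for 9 of 16 mitochondrial genes and higher for 0, where 25.6% of 16707 genes tested were higher, 27.2% lower and 52.7% either. For mitochondrial genes higher, edgeR at an unadjusted p under 0.05 and DESeq2 also had 0. FARSB had the largest difference (log2 -1.76, SE 0.10, adjusted p = 4.98e-09), followed by VARS1 (log2 -1.65, SE 0.13, adjusted p = 9.69e-08) and FARSA (log2 -1.55, SE 0.10, adjusted p = 1.19e-08), which rose in A549 and fell in SUM159. RARS1 (log2 -1.13) and HARS1 (log2 -0.61) did the same, so that the 5 cytosolic genes that rose in A549 were called lower in SUM159, although the HARS1 call in SUM159 was lost without treated replicate 2. CARS1 (log2 1.23, SE 0.09, adjusted p = 5.94e-08) and QARS1 (log2 0.63, SE 0.08, adjusted p = 1.96e-05) went the other way. AARS1 (log2 1.20, SE 0.09), SARS1 (log2 0.99, SE 0.09) and GARS1 (log2 0.98, SE 0.09) fell in A549 and were not called in SUM159. The lower mitochondrial genes were led by MARS2 (log2 -1.51, SE 0.17), LARS2 (log2 -1.15, SE 0.11) and AARS2 (log2 -0.97, SE 0.13). WARS1 differed (log2 0.45, SE 0.10) and WARS2 did not pass the test (log2 -0.02, SE 0.16, adjusted p = 0.975). The 6 cytosolic genes lower in both lines were EPRS1, IARS1, MARS1, NARS1, TARS1 and YARS1, and the mitochondrial ones were NARS2 and WARS2. Without untreated A549 replicate 1 there was 1 mitochondrial gene with a higher response in place of 0, and DESeq2 called 9 genes higher and 15 lower over both classes.

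**Figure D4:**
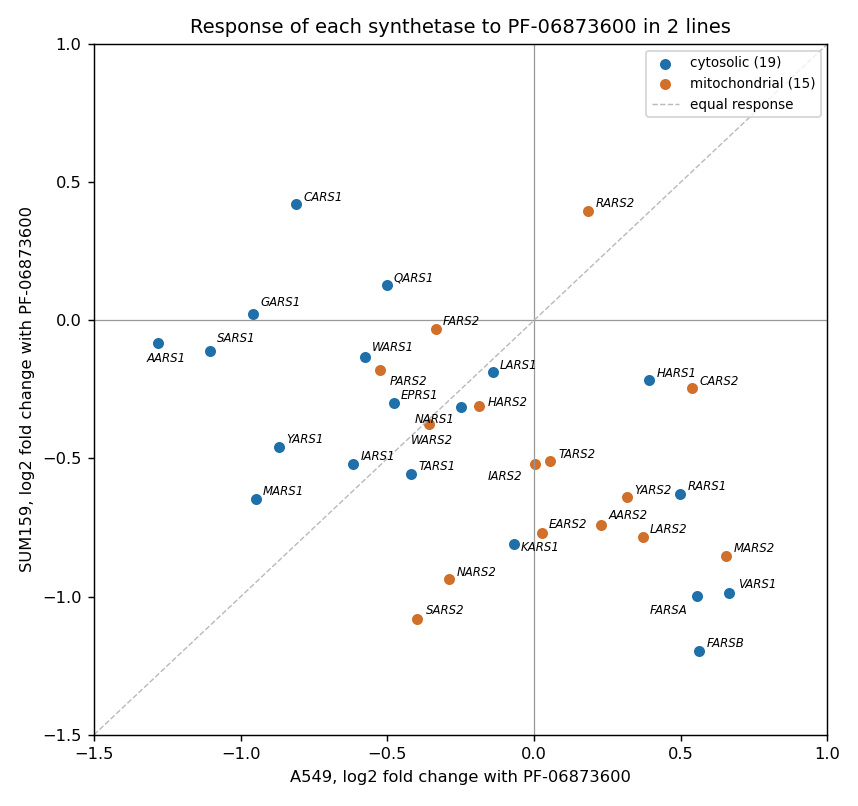
Log2 fold change with PF-06873600 in A549 (horizontal axis) and in SUM159 (vertical axis) for the 19 cytosolic genes (blue) and the 15 mitochondrial genes tested in both lines (orange), with the dashed line at an equal response. FARSA, FARSB, VARS1 and RARS1 lie at lower right, AARS1, SARS1, GARS1 and CARS1 at far left near or above the horizontal zero line, and every mitochondrial point except RARS2 lies below it.

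Before treatment the lines differed in about the same share of the 35 genes as of all genes tested. In untreated SUM159 against untreated A549, 9 cytosolic genes were higher and 8 lower, and 10 of 16 mitochondrial genes were higher and 1 lower, with 42.8% of all genes tested higher and 36.4% lower. The median of all genes tested was log2 0.12 here and 0.0 with DESeq2, and the values below are to be read against that shift. VARS1 was higher (log2 1.93, SE 0.09, adjusted p = 8.06e-11), as were FARSB (log2 1.81, SE 0.07, adjusted p = 9.79e-12) and FARSA (log2 1.53, SE 0.07, adjusted p = 4.36e-11). AARS1 was lower (log2 -1.51, SE 0.06, adjusted p = 1.84e-11), as were GARS1 (log2 -1.10, SE 0.06) and MARS1 (log2 -1.02, SE 0.06). Of the mitochondrial genes LARS2, for leucine, was at 22.8 and 21.9 CPM in A549 and 76.7 and 69.6 CPM in SUM159 (log2 1.71, SE 0.08, adjusted p = 6.14e-11), VARS2 had log2 1.67 on few counts, a call lost with DESeq2, and MARS2 was 2.83-fold higher. SARS2 was the lower one (log2 -1.18, SE 0.23), and DESeq2 and edgeR without untreated A549 replicate 1 each called 2 mitochondrial genes lower. Treated A549 and SUM159 cells stood closer for several of these genes, with AARS1 at 235 and 231 CPM in A549 and 191 and 185.5 CPM in SUM159, and FARSA at 91.4 and 88.6 CPM and 89.4 and 87.9 CPM. Both line comparisons use the same untreated libraries.

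For amino acids with a gene in each class, the cytosolic gene changed more downward in A549. With the combination the log2 change of the cytosolic gene was below that of its mitochondrial partner in 10 of 13 pairs, with a median difference of -0.57, and with PF-06873600 in 9 of 13 pairs, with a median difference of -0.51. The widest pair with PF-06873600 in A549 was that of methionine, where MARS1 fell by log2 -0.95 and MARS2 rose by log2 0.66, a difference of -1.60. The phenylalanine pair ran the other way in both treatments, with FARSA above FARS2 by 0.78 with the combination and by 0.89 with PF-06873600. In SUM159 the cytosolic gene was above its partner in 10 of 14 pairs, with a median difference of 0.22. The histidine pair had 0.58 in A549 and 0.09 in SUM159 with PF-06873600, and the tryptophan pair -0.22 and 0.24.

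The genes of the multisynthetase complex fell beside the other cytosolic genes. With the combination 6 of the 7 complex genes were lower, all but RARS1, with a median log2 change of -0.81, and 8 of the 12 cytosolic genes outside the complex were lower, with a median of -0.53, where 30.0% of all genes tested were lower. With PF-06873600 in A549 4 of 7 and 8 of 12 were lower, with medians of -0.48 and -0.50, against 27.8% of all genes. In SUM159 6 of 7 and 7 of 12 were lower, with medians of -0.52 and -0.27, against 35.6% of all genes. The scaffold gene AIMP1 fell from 77.2 and 85 CPM in untreated A549 to 52.9 and 51.04 CPM with the combination (log2 -0.64, SE 0.07, adjusted p = 2.68e-06). EEF1E1 fell with the combination (log2 -0.65, SE 0.14, adjusted p = 0.00108) and AIMP2 was not called (log2 -0.11, SE 0.07, adjusted p = 0.198), although it passed as lower with TMM factors. With PF-06873600 the changes of AIMP1, AIMP2 and EEF1E1 were log2 -0.49, 0.45 and -0.03 in A549, of which the last was not called, and log2 -0.54, -0.81 and -1.13 in SUM159, all lower. AIMP2 thus rose and fell in the same lines as FARSA, FARSB and VARS1.

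The 6 cytosolic genes with TGATGCAA in the promoter window (AARS1, CARS1, IARS1, MARS1, NARS1 and TARS1) were all lower with palbociclib, with the combination and with PF-06873600 in A549, and 4 of them with indisulam. Of the 10 cytosolic genes whose window lacked these letters, 3, 6, 5 and 5 were lower in the same order, and of all genes tested 7.4%, 30.0%, 27.8% and 17.5%. The median log2 change with palbociclib was -0.22 for the 6 and -0.12 for the 10. With indisulam it was -0.18 for the 6 and -0.23 for the 10, the other way round. With the combination it was -0.73 and -0.60, and with PF-06873600 -0.71 and -0.27. SARS1 and QARS1, among the genes that fell most with the combination, were among the 10. So was GARS1, whose window holds the wider TGATGNAA and which was lower with each treatment of A549. In SUM159 4 of the 6 were lower and 1 was higher with PF-06873600, and 6 of the 10 were lower and 1 was higher, where 35.6% of all genes were lower and 38.1% higher. These genes were grouped with earlier results known, and the counts carry no test.

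The ATF4 gene and other genes of the amino acid response fell in A549 beside the cytosolic synthetases. ATF4 was at 508 and 547 CPM in untreated A549, 275.5 and 260.1 CPM with the combination (log2 -0.98, SE 0.06, adjusted p = 1.54e-09) and 252 and 249 CPM with PF-06873600 (log2 -1.07, SE 0.06, adjusted p = 1.15e-09). Of 27 genes of this response 16 were lower and 0 higher with palbociclib, 19 lower and 4 higher with indisulam, 20 lower and 5 higher with the combination, and 21 lower and 3 higher with PF-06873600. Over all genes tested the shares lower were 7.4%, 17.5%, 30.0% and 27.8% in this order, and those higher 8.3%, 28.0%, 35.1% and 28.5%. The median log2 change of the list was -0.31, -0.53, -1.41 and -1.11. PHGDH, which starts serine synthesis, went from 319 and 289 CPM to 44.5 and 40.7 CPM with the combination and 40 and 38.2 CPM with PF-06873600. PCK2, the mitochondrial phosphoenolpyruvate carboxykinase, had log2 -2.93 with the combination, while the stress factor ATF3 rose (log2 2.57). In SUM159, of 26 genes tested 11 were lower and 9 higher, near the shares over all genes of 35.6% and 38.1%, with ATF4 at 202 and 203 CPM in untreated and 161 and 163 CPM in treated libraries (log2 -0.32, SE 0.05), PHGDH higher (log2 0.53) and the leucine transporter gene SLC7A5 lower (log2 -2.29). The response differed between the lines with 21 of 27 genes higher in SUM159 and 4 lower, against 25.6% and 27.2% of all genes. MARS1 overlaps DDIT3, a gene of this list on the opposite strand, which fell from 24.4 and 26.4 to 13.4 and 13 CPM with the combination and rose in SUM159 (log2 0.74).

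Other genes of translation and related lists were read in the same way, against 30.0% lower and 35.1% higher over all genes with the combination, 27.8% and 28.5% with PF-06873600 in A549, and 35.6% and 38.1% in SUM159. With lists of 5 genes or fewer such shares can hardly be compared. Of 14 mitochondrial translation factors and transamidation genes, 10 were lower and 2 higher with the combination, 5 lower and 3 higher with PF-06873600 in A549, which is near the shares over all genes, and 8 of 13 lower and 1 higher in SUM159. With PF-06873600 in A549 and SUM159 the ribosome recycling factor gene MRRF fell in both (log2 -0.68 and -1.41), and GFM2, a factor that acts beside it, rose in both (log2 0.56 and 0.81). The initiation factor gene MTIF2 fell in SUM159 (log2 -1.31). Of 5 genes for mitochondrial biogenesis 4 were lower with the combination, 2 lower and 1 higher with PF-06873600 in A549 and 3 lower and 1 higher in SUM159, where TFAM, which packages mitochondrial DNA, had log2 -1.06. The list of 5 genes for eIF2 kinases includes GCN1, an activator of the kinase EIF2AK4. Of these 5 genes, 2 were higher and 2 lower both with the combination and with PF-06873600 in A549. GCN1 rose in A549 (log2 0.59 and 0.66) and fell in SUM159 (log2 -0.56). The trans-editing gene DTD1, which removes D-amino acids from tRNA, was lower with the combination (log2 -0.98) and with PF-06873600 in A549 (log2 -1.11) and SUM159 (log2 -0.82). WARS1 is known to respond to interferon. The 5 interferon response genes examined were all higher with the combination and in SUM159, with IRF1 at log2 1.44 and 1.39. WARS1 had log2 -0.91 and -0.13, of which the last was not called.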

How the data were processed

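Messenger RNA of 14 libraries was sequenced, and the authors deposited read counts per gene, not normalized, made with HISAT2 2.2.1 and HTSeq on GRCh38 per the submitters' processing notes. The annotation release and the strand setting of the counting are not given in the sources used here. Reads of genes that share exon bases on opposite strands may therefore not be separable. Such pairs were MARS1 and DDIT3, KARS1 and TERF2IP, GARS1 and GARS1-DT, WARS2 and WARS2-AS1, and HARS1 and HARS2. Further pairs were AARS1 and DDX19B, YARS1 and S100PBP, WARS1 and WDR25, CARS2 and ING1, EARS2 and UBFD1, and HARS1 and WDR55. Gene symbols and coordinates came from GENCODE release 44. In it VARS2 shares exon bases with ENSG00000288473 on the same strand, SARS2 with ENSG00000269547, EARS2 with GGA2 and HARS2 with ZMAT2. Reads in such bases may not be assigned to either gene, and their part in these levels was not tested. Rows that name no gene were left out of library sizes. Library totals are given with the results, and precision is that of 2 libraries per group.

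Counts were scaled by total count, as in the study, filtered with filterByExpr and fitted with edgeR 4.0.16 (glmQLFit, glmQLFTest) in R 4.3.3, with 1 model for 10 A549 libraries, 1 for 4 SUM159 libraries and 1 for the 8 libraries of both lines that were untreated or received PF-06873600. P-values were adjusted by Benjamini and Hochberg over all genes tested, with a threshold of 0.05. The test was tried on simulated counts. TPM used the length of the canonical transcript, and mean log levels a pseudocount of 1 CPM. The alternatives were TMM factors, DESeq2 1.42.0, no filter, a mean count of at least 50, only the groups compared, a replicate block and each library left out. The smallest two-sided exact permutation p for 2 against 2 libraries is 0.33, so none is given.

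The genes, their lists and the tests were chosen with earlier results of these data known. Named in each comparison were the 3 cytosolic and 3 mitochondrial genes with the largest called change whose groups did not overlap, GARS1, KARS1, the histidine and tryptophan pairs, the scaffold genes, ATF4 and the 3 largest of each other list. Other genes named were chosen after their values were seen.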

Additional observations from a re-analysis of the deposited data

Results flagged for a closer look

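The response to PF-06873600 differed between A549 and SUM159 by a test of the difference itself, and that is why it is listed here. Over the 35 genes, 8 had a higher and 15 a lower log2 change in SUM159 than in A549 in edgeR's model of both lines, where 25.6% of all genes tested were higher and 27.2% lower. The genes with the largest differences of their class were the cytosolic FARSB (log2 -1.76), VARS1 (log2 -1.65) and FARSA (log2 -1.55) and the mitochondrial MARS2 (log2 -1.51), LARS2 (log2 -1.15) and AARS2 (log2 -0.97). All 6 were higher in untreated SUM159 than in untreated A549. The untreated libraries enter both values, and the lines also differed in their growth medium.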

How the results depend on the processing

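The cytosolic genes named by the rule that fell by at least 0.6 (log2) kept their calls and direction in all alternatives run. They were picked from the same fits for large called changes, so this was likely beforehand and says little of other genes. Under settings that keep all libraries, 1690 values of genes named by the rule kept their direction and their side of the threshold. Of the rest, 48 lost the threshold, 5 gained it and 3 changed sign. With each library left out, 1332 values kept both, 77 lost the threshold, 7 gained it and 24 changed sign. Over all alternatives 14 gene results changed sign, of which 0 were called in edgeR as reported or where the sign had changed. HARS1 with palbociclib (-0.0035) was 0.0045 with TMM factors and 0.0049 with DESeq2, and WARS2 in the difference between lines was 0.0342 with DESeq2. With each library left out, HARS1 ranged over -0.1146 to 0.1167 with palbociclib, -0.153 to 0.0783 with indisulam, -0.2068 to 0.0245 with the combination and -0.1706 to 0.0607 for the interaction. HARS2 ranged over -0.0903 to 0.0122 with palbociclib, -0.0636 to 0.1049 for the combination against indisulam and -0.0273 to 0.1412 for the interaction. WARS2 ranged over -0.2487 to 0.0433 for the combination against indisulam, -0.0833 to 0.2086 for the interaction and -0.1483 to 0.1458 between lines. KARS1 (-0.1443 to 0.0097) and EEF1E1 (-0.0926 to 0.0385) with PF-06873600 in A549, GARS1 in SUM159 (-0.0152 to 0.0635) and AIMP1 between lines (-0.1244 to 0.0154) also crossed 0.

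With DESeq2 the genes called with palbociclib were 1 higher and 6 lower, against 3 and 10, and in a model of only the groups compared 0 and 3. DESeq2 called 3 genes higher with indisulam, 2 with the combination and 0 against palbociclib alone, and TMM factors 2 with the combination and 1 against palbociclib alone. The interaction had 0 genes higher with TMM factors and with no filter. The cause was not tested.

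With each library left out, the genes higher and lower ranged over 1 to 5 and 5 to 11 with palbociclib, 3 to 7 and 10 to 14 with indisulam, 3 to 4 and 18 to 20 with the combination, 1 to 3 and 19 to 21 against palbociclib alone, 0 and 18 to 20 against indisulam alone, 0 to 1 and 11 to 15 for the interaction, 8 to 10 and 13 to 16 with PF-06873600 in A549, 2 to 3 and 24 to 28 in SUM159, 7 to 9 and 15 to 16 for the difference between lines, and 19 and 9 to 10 between untreated lines.

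The difference between the classes in mean log level depends on how it is averaged. With the median over genes it changed by -0.50 with palbociclib, -0.55 with indisulam, -0.53 with the combination, -0.0345 for the combination against palbociclib, 0.0179 against indisulam (reversed from -0.23), 0.52 for the interaction (reversed from -0.0004), -0.81 with PF-06873600 in A549, 0.31 in SUM159, 1.12 for the difference between lines and -0.92 between untreated lines. With a pseudocount of 0.25 the combination against palbociclib had -0.24. With each library left out the same values ranged over -0.25 to -0.22, -0.27 to -0.15, -0.45 to -0.43, -0.22 to -0.19, -0.29 to -0.17, -0.0589 to 0.0581, -0.37 to -0.34, 0.04 to 0.12, 0.39 to 0.47 and -0.36 to -0.28 in this order, where the interaction turned positive without untreated replicate 2 (0.0108), palbociclib replicate 1 (0.0155), indisulam replicate 2 (0.0581) and combination replicate 1 (0.0105). Of the genes with promoter windows, 3 cytosolic ones held TGATGNAA before the RefSeq start and 0 mitochondrial ones held the narrower TGATGCAA.

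The labels give the groups the same replicate numbers. The deviations of same-numbered libraries had correlations of -0.19 with palbociclib, -0.15 between untreated lines and 0.14 at most. With 2 libraries per group such correlations cannot settle whether libraries were paired, and the numbers are used here only to name libraries. With a replicate block the genes higher and lower were 3 and 8 with palbociclib, 5 and 13 with indisulam, 4 and 20 with the combination, 9 and 15 with PF-06873600 in A549, 3 and 27 in SUM159, 8 and 15 for the difference between lines and 19 and 9 between untreated lines. With the palbociclib or untreated SUM159 numbers crossed, a choice made after seeing the data, they were 3 and 10 and 19 and 9. VARS2 and SARS2 rest on few counts, and each shares exon bases with another gene on its strand.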
